A study of Rattus norvegicus with 10 samples.

Results

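Rat miR-352 is a small RNA that silences messenger RNAs by base pairing, and it was followed here through 10 RNAs of rat collateral vessels, the small arteries that bypass a closed main artery. It was taken as the array probe whose name is exactly rno-miR-352, which is 1 of the 237 rat miRNA probes and 1 of the 1107 probes on the array. The shunt group (n = 5) is collateral tissue of the leg in which the femoral artery was tied off and an arteriovenous shunt was placed so that shear stress in the collaterals was as high as possible. The control group (n = 5) is the same tissue of the opposite, sham-operated leg of the same 5 male Sprague-Dawley rats, numbered 27, 28, 30, 31 and 32. The series names the groups growing and quiescent, and the sources used here give neither the animals' age nor the time after surgery. Total RNA was labelled directly with a red or a green dye and hybridised in pairs to 10 arrays that form a closed loop, so that every RNA was read once in the red and once in the green channel.

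A mature miRNA guides an Argonaute protein to messenger RNAs that pair with its seed, the bases near its 5′ end, and lowers their translation or stability. The let-7 family, which includes miR-98, is known for rising during differentiation and for holding back growth regulators such as Ras proteins. The mature rat miR-352 is known to resemble let-7 in sequence, and let-7 miRNAs are abundant in the vessel wall. The sequence and locus of miR-352 were not in the sources used here, so its seed was not compared with that of let-7. An array probe can also bind RNAs of similar sequence, so the let-7 and miR-98 probes were described beside miR-352, and how much of its signal came from such RNAs was not tested.

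The rat array holds 8 let-7 and miR-98 probes, and the mature sequences of all 8 were matched in RefSeq (GRCr8). They are shown as the set whose shunt minus control difference was set beside that of miR-352, 5′ to 3′, with the seed (bases 2 to 8) in capitals.
let-7d: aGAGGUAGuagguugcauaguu
let-7a: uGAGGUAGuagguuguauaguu
let-7c: uGAGGUAGuagguuguaugguu
let-7e: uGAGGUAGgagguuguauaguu
let-7f: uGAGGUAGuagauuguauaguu
let-7b: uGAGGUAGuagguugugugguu
miR-98: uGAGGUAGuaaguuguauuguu
let-7i: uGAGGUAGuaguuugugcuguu
All 8 are 22 bases long and share 1 seed. They differ from let-7d at 2 positions in let-7a, at 3 in let-7c, let-7e and let-7f, at 4 in let-7b and miR-98, and at 6 in let-7i. In GRCr8 the mature let-7d lies at chr17:16322273-16322294 on the plus strand.

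Of all rat miRNAs, 88.8 ± 12.8 (SD, n = 5) were above background in a shunt RNA and 60.5 ± 19.0 (SD, n = 5) in a control RNA, as means of its 2 readings. A miRNA counted as above background in a reading where 2 or more of the 3 spots lay over 2 SD above their local background. Of the arrays, 2 held both groups and the others held 1 group each, so for most RNAs group and array cannot be told apart. The tissue carried vessel markers: miR-143 of smooth muscle and miR-126 of endothelium were above background in 10 of 10 readings of each group. The other smooth muscle marker, miR-145, was so in 9 shunt and 8 control readings. Of the erythroid markers, miR-451 and miR-144 were above background in none of the 20 readings. The leukocyte marker miR-150 was above background in 9 shunt and 10 control readings. For the leukocyte markers miR-142-3p, miR-142-5p and miR-223 it was at most 2 of 10 readings in either group. All 4 striated muscle markers passed the filter on dim probes, with a summed log2 intensity of 26.8 to 29.5 in shunt and 25.6 to 27.7 in control RNAs. Because these are bulk tissue samples, fewer cells of a type and less RNA per cell cannot be told apart. Per the labels the replicates are biological, and the sample names tie each replicate number to the legs of 1 rat. The number of arrays limits the precision.

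miR-352 was a dim probe in both groups. Its 30 spots, each read in 2 channels, started at -2 intensity units above a local background of 36 to 50 units in the red and 51 to 77 units in the green channel, and the highest mean of 3 spots was 104 units. It was above background in 6 of 10 readings of shunt RNA and in 3 of 10 readings of control RNA. Those readings were both of shunt 2, both of shunt 3 and 1 each of shunt 4 and shunt 5, against both of control 4 and 1 of control 1. Shunt 1 and control 2, 3 and 5 had no reading above background. It passed the filter that kept 93 of 237 rat miRNAs (above background in a share of 0.5 or more of the readings of 1 group) through the shunt group alone.

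The net intensity, that is spot mean minus local background median, shows the same few RNAs as bright in the raw scans. In the green channel the mean of the 3 spots was 11.7 in shunt 1, 104 in shunt 2, 54.7 in shunt 3, 39.7 in shunt 4 and 40.3 in shunt 5, against 47.7 in control 1, 4.33 in control 2, 11.3 in control 3, 100 in control 4 and 9 in control 5. In the red channel it was 18.3 in shunt 1, 62.7 in shunt 2, 26.3 in shunt 3, 14 in shunt 4 and 3.33 in shunt 5, against 16.7 in control 1, 1.33 in control 2, 11 in control 3, 28.3 in control 4 and 0.333 in control 5. Shunt 2 was highest in both channels, control 4 was next in both, and control 2 and control 5 were close to the background in both. The groups overlapped in each channel. The scanner software had flagged 8 of the 30 spots of miR-352, all on arrays with control RNA in 1 or both channels, and these spots were kept in the values. Flags were not particular to miR-352. Of the spots of all probes, 59.8% to 72.1% were flagged on arrays with control RNA, except 44.8% on that of shunt 5 and control 1. On arrays with shunt RNA alone the share was 28.4% to 50.05%.

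**Figure D1:**
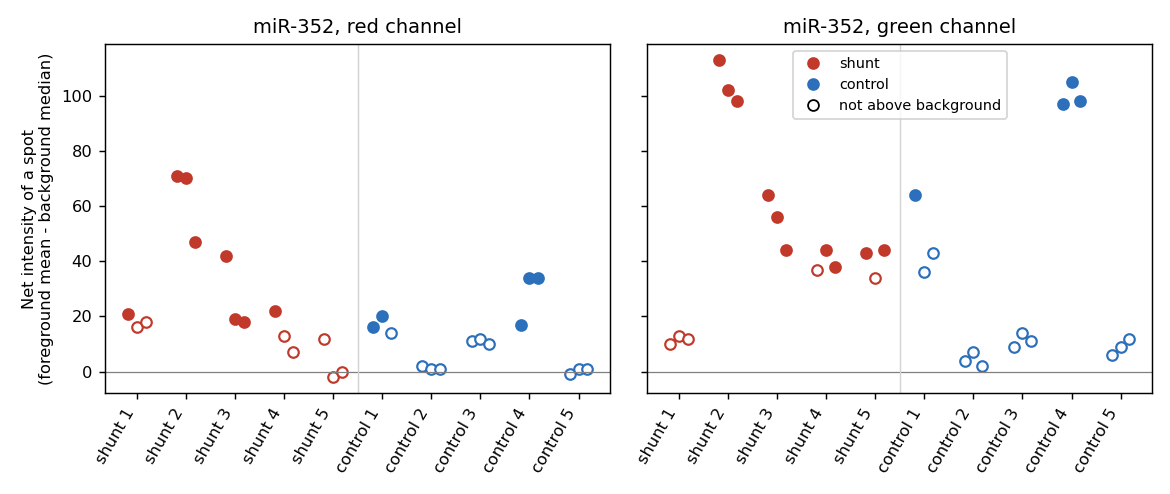
Net intensity (foreground mean minus background median, scanner units) of each of the 3 miR-352 spots in every RNA, in the red (left) and green (right) channel, with shunt RNAs as red points, control RNAs as blue points and spots not above background open. The spots of shunt 2 and control 4 stand highest in the green channel, and all spots of control 2, control 3 and control 5 are open.

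After background correction and normalization, the log2 intensity of miR-352 was 6.07 in shunt 1, 6.69 in shunt 2, 6.43 in shunt 3, 6.26 in shunt 4 and 6.17 in shunt 5. In control RNAs it was 6.27 in control 1, 5.84 in control 2, 5.85 in control 3, 6.72 in control 4 and 5.89 in control 5. An offset added to every spot, 5.64 in log2 before normalization, shrinks changes of a dim probe. Normalization then moved dim readings by array, so this value is no fixed floor. The red reading of control 5, with a net intensity of 0.333, came to 5.95, and that of control 3, with 11, to 5.82. The groups overlapped: control 4 was the highest of all 10 RNAs, while control 5, control 3 and control 2 were the lowest. The order between them, high to low, was shunt 2, shunt 3, control 1, shunt 4, shunt 5 and shunt 1.

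Most neighbours in that order cannot be separated. The 2 readings of an RNA differed by 0.18 log2 on average, from 0.0079 in shunt 4 to 0.55 in control 4. Of the 9 gaps between neighbouring RNAs, 2 exceeded that average, between shunt 2 and shunt 3 (0.26) and between shunt 1 and control 5 (0.19). Shunt 2 and control 4 were 0.026 apart, and their readings crossed: 6.65 in the red and 6.73 in the green channel for shunt 2, against 6.44 and 6.99 for control 4. The highest level in the study therefore rested on 1 reading of control 4, from the array it shared with control 3.

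**Figure D2:**
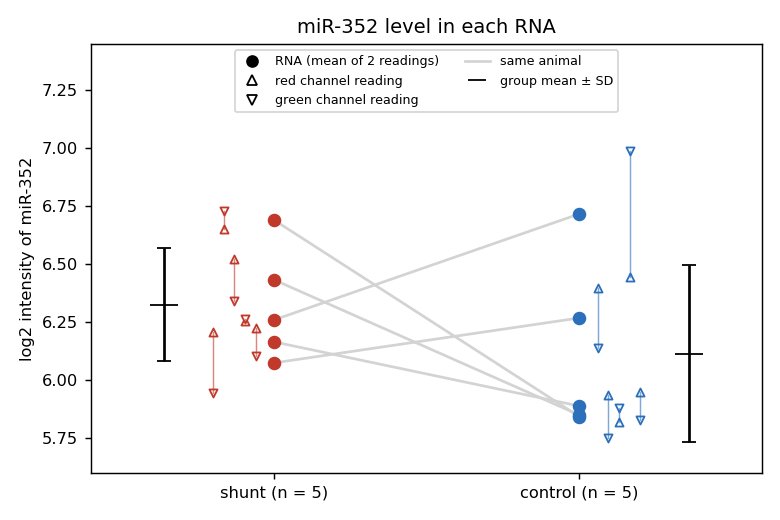
Normalized log2 intensity of miR-352 in shunt (left, n = 5) and control (right, n = 5) RNAs, with filled circles for RNAs, triangles for the 2 readings of each, grey lines joining the legs of an animal and black bars for the group mean ± SD. The groups overlap, at 6.07 to 6.69 in shunt and 5.84 to 6.72 in control RNAs, and the lines run in both directions.

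miR-352 read higher in shunt than in control collaterals on average, by less than the spread between RNAs. The mean was 6.32 ± 0.24 in shunt and 6.11 ± 0.38 log2 in control RNAs (SD, n = 5 each). The shunt minus control difference was 0.21 log2 (SE 0.18, 95% interval -0.19 to 0.61), or 1.16-fold (0.877 to 1.53), and it did not pass limma's moderated test with Benjamini-Hochberg adjustment (adjusted p = 0.442). An exact permutation test over the 10 RNAs, two-sided, gave p = 0.325, where the smallest possible p is 0.00794. Of the 93 miRNAs tested, 1 passed at an adjusted p under 0.05 (1.08%), which was miR-21, a miRNA of growing smooth muscle, chosen for naming after its values were seen. miR-21 was above background in 8 shunt and 0 control readings, so it too was tested through the shunt group alone. With the animal as a block limma called 0, with 13 at an unadjusted p under 0.05 against 18 without it. The median difference of all 93 was 0.12, with 67 above 0 and 26 below, and 32 of the 93 had passed the filter through the shunt group alone, against 1 through the control group alone. Without the filter the median was 0.020, with 141 of 237 above 0. The difference of miR-352 was 0.09 relative to the median of the 93 and 0.19 relative to that of all 237. Counted down from the highest, it was at rank 30 of 93, and by size in either direction at rank 37.

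The size of the difference depended on single RNAs and on how dim readings were treated. Without control 4 it was 0.36 (adjusted p = 0.083) and without shunt 2 it was 0.12 (adjusted p = 0.757). With no offset it was 0.75 (adjusted p = 0.389), or 0.51 relative to a median of 0.24, and with dim readings raised to the lowest level of any probe above background in their channel, an alternative chosen after seeing the data, it was -0.020 (adjusted p = 0.953).

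**Figure D3:**
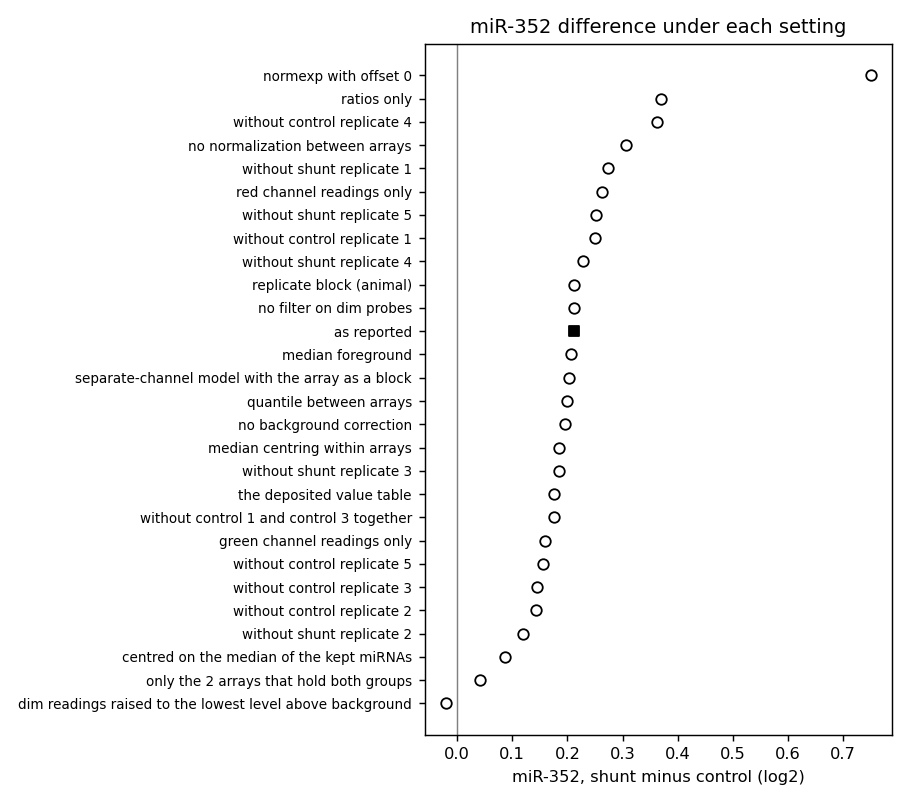
Shunt minus control difference of miR-352 (log2) as reported (square) and under each of 27 other settings (circles), with the line at 0. All but 1 lie above 0, from 0.041 on the 2 arrays with both groups to 0.75 with no offset, and dim readings raised to the lowest level above background give -0.020.

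Within animals the direction was mixed. In the shunt leg miR-352 was higher by 0.85 log2 in animal 28, by 0.58 in animal 30 and by 0.28 in animal 32. The shunt minus control difference was -0.19 in animal 27 and -0.46 in animal 31. The SD of these differences was 0.54, and an exact permutation exchanging the legs within animals gave p = 0.4375, with 0.0625 as the smallest possible. After normalization the direction in each animal was the same in both channels. The differences were -0.19, 0.72, 0.70, -0.19 and 0.28 in the red channel for animals 27, 28, 30, 31 and 32. In the green channel they were -0.19, 0.98, 0.46, -0.73 and 0.28. Net intensity had the same directions except in the red channel of animal 27, at 18.3 in the shunt and 16.7 in the control leg. In animal 32 the red net intensity was 3.33 and 0.333, with no spot above background in either leg. No reading was above background in the shunt leg of animal 27 or in the control legs of animals 28, 30 and 32. The sizes of these 4 differences are therefore imprecise, and their agreement between channels rests in part on dim readings.

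The authors' deposited table gave the same direction in every animal. The sign of its folds is not explained there and was read from the deposited value table, whose columns name the RNAs and whose differences have the same sizes. Its fold was 1.91 with shunt higher in animal 28, 1.36 with shunt higher in animal 30 and 1.16 with shunt higher in animal 32. In the same authors' deposited table the fold was 1.12 with control higher in animal 27 and 1.46 with control higher in animal 31. The authors' p in that deposited table ran from 0.103 in animal 28 to 1.00 in animal 27, by a test that is not stated there. Levels in the deposited value table correlated with those computed here with r = 0.97 over the 10 RNAs, both being made from the same scans. The top place differed: in the deposited value table shunt 2 was highest (0.63) and control 4 next (0.49). From that table the shunt minus control difference was 0.18 log2 (SE 0.20, limma adjusted p = 0.593).

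**Figure D4:**
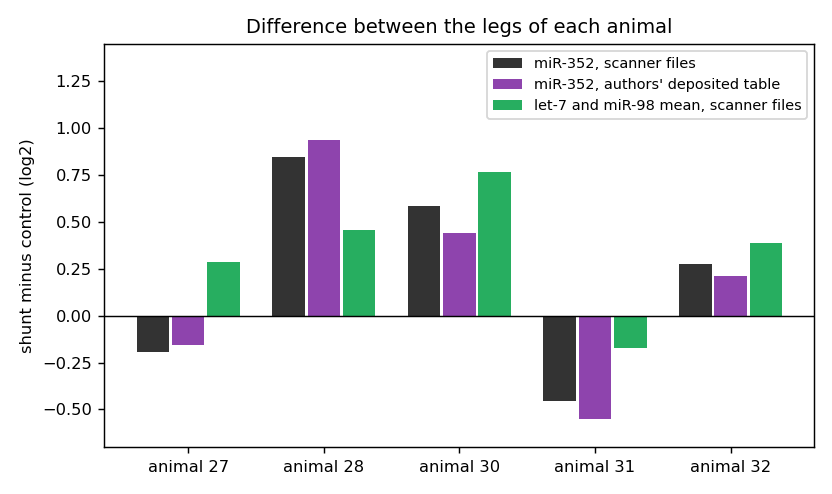
Shunt minus control difference (log2) in each of the 5 animals for miR-352 from the scanner files (black), miR-352 in the authors' deposited table (purple) and the mean of the let-7 and miR-98 probes (green). The miR-352 bars point up in animals 28, 30 and 32 and down in animals 27 and 31, and the let-7 and miR-98 mean is below 0 in animal 31.

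The 10 arrays also give miR-352 as ratios between RNAs hybridised together. On the array of control 3 and control 4 the log2 ratio, red minus green, was -1.17, the widest of the 10, so these 2 control RNAs differed more than any other pair that shared an array. The ratio was 0.65 for control 1 over control 2, 0.62 for control 4 over control 5 and -0.52 for shunt 1 over shunt 2. The remaining 1-group arrays gave 0.31 for shunt 2 over shunt 3, 0.26 for shunt 3 over shunt 4, 0.15 for shunt 4 over shunt 5 and 0.057 for control 2 over control 3. On the 2 arrays that set the groups side by side it was 0.089 for shunt 5 over control 1, and 0.0062 for control 5 over shunt 1. In opposite dyes these average to a shunt minus control difference of 0.041, with no test, and each array lay nearer to 0 than the difference over all RNAs.

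None of the let-7 and miR-98 probes passed the test between shunt and control. All 8 passed the filter on dim probes, miR-98 through the shunt group alone (above background in 5 shunt and 3 control readings). All 8 had a shunt minus control difference above 0, against 67 of 93 (72%) of all kept miRNAs. Their median was 0.33 log2, against 0.12 over all 93. By the adjusted test 0 of the 8 passed, against 1.08% of all miRNAs, and 3 of the 8 had an unadjusted p under 0.05, all in the higher direction, against 17.2% of all in that direction and 19.4% in either. let-7d had a log2 intensity of 9.13 ± 0.18 in shunt and 8.53 ± 0.52 in control RNAs (SD, n = 5 each), a difference of 0.60 (SE 0.22, limma adjusted p = 0.182). The difference was 0.44 for let-7f (limma adjusted p = 0.213), 0.35 for let-7c, 0.23 for miR-98 and 0.21 for let-7i. These sizes moved with the scaling: with no between-array normalization the difference was 1.32 for let-7d, 1.24 for let-7f and 1.57 for let-7c, and in the deposited value table it was 1.16, 1.10 and 1.43, with none past the test. These probes target near-identical sequences and are not separate evidence. Without control 4, the difference of let-7d was 0.81 (limma adjusted p = 0.0032), and 6 of the 8, all but let-7a and let-7c, passed, in a fit in which 25 of all 93 miRNAs (26.9%) passed.

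The difference of miR-352 was compared with that of these probes by taking its level minus their mean in each RNA. This value was -2.88 ± 0.21 in shunt and -2.75 ± 0.12 in control RNAs (SD, n = 5 each), a difference of -0.13. With the offset in place, the difference of miR-352 was thus the smaller one on average. The level of miR-352 over that mean was higher in shunt in 1 of 5 animals. An exact permutation test, two-sided, gave p = 0.246 over RNAs and p = 0.375 within animals. Between legs, the let-7 and miR-98 mean differed by 0.29, 0.46, 0.77, -0.17 and 0.39 in animals 27, 28, 30, 31 and 32. Animal 31, whose control RNA had the highest normalized level of miR-352, was the 1 animal in which both lay below 0. The sign of this comparison turned with no offset (0.34, p = 0.524 by the exact permutation test) and with levels solved from ratios alone (0.030, p = 0.929 by the exact permutation test). It passed without shunt 2 (-0.22, exact permutation p = 0.0397), with quantile normalization between arrays (-0.21, p = 0.0476 by the exact permutation test) and with no between-array normalization (-0.82, p = 0.00794 by the exact permutation test). These settings kept the offset, and with no between-array normalization 85 of 93 miRNAs were higher in shunt. The offset shrinks changes of a dim probe most. The let-7 and miR-98 mean, at 9.21 in shunt and 8.86 in control RNAs, was far brighter than miR-352. The comparison therefore cannot tell which of them changed more.

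Across the 10 RNAs the pattern of miR-352 was closest to 6 miRNAs outside the let-7 list, described by Pearson's r with no test, since RNAs that share an array share its errors. These were miR-26b (r = 0.96), miR-20a* (r = 0.95), miR-1 (r = 0.94), miR-151 (r = 0.94), miR-422b (r = 0.93) and miR-195 (r = 0.92). Without control 4 the coefficients were 0.97, 0.93, 0.94, 0.91, 0.91 and 0.89. Without both control 4 and shunt 2, the brightest RNAs for miR-352, they ran from 0.82 to 0.94. In that subset miR-26b stayed closest, while let-7e (0.92), let-7d (0.91) and miR-10a (0.94, named after its values were seen) lay above miR-1, miR-151, miR-422b and miR-195. Which miRNAs came next after miR-26b thus depended on these 2 RNAs. The median over the 92 other kept miRNAs was 0.39, with a range from -0.92 to 0.96.

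Of these 6, miR-1, a striated muscle miRNA, had the largest difference. Its log2 intensity was 7.01 ± 0.41 in shunt and 6.43 ± 0.59 in control RNAs (SD, n = 5 each), a difference of 0.58 (SE 0.28, limma adjusted p = 0.258), and it was above background in 10 shunt and 4 control readings. miR-26b, the closest and of a family known to target the chromatin enzyme Ezh2, had 6.87 ± 0.18 in shunt and 6.75 ± 0.46 in control RNAs (SD, n = 5 each), a difference of 0.12 (SE 0.20, limma adjusted p = 0.745). miR-20a*, from the opposite arm of the hairpin that gives miR-20a, differed by 0.40, and miR-422b, an older name for a miRNA now called miR-378, by 0.43. The difference was 0.38 for miR-151, which in humans lies within the focal adhesion kinase gene, and 0.27 for miR-195, a relative of miR-15 and miR-16, which are known to slow cell division. None of the 6 passed limma's adjusted test with all RNAs or had an unadjusted p under 0.05, and without control 4 all but miR-26b passed it, as did 26.9% of all 93. The 6 were chosen for following miR-352, which was highest in control 4, so this count is no separate evidence. With an offset of 0 the difference was 1.42 for miR-422b and 1.37 for miR-1, and with levels solved from ratios alone it was 0.0041 for miR-195. miR-422b was above background in 8 shunt and 2 control readings. It and miR-1 had passed the filter on dim probes through the shunt group alone. Each of the 6 was highest in control 4 among the control RNAs and, but for miR-195, highest in shunt 2 among the shunt RNAs. This too follows in part from their choice by r with miR-352.

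**Figure D5:**
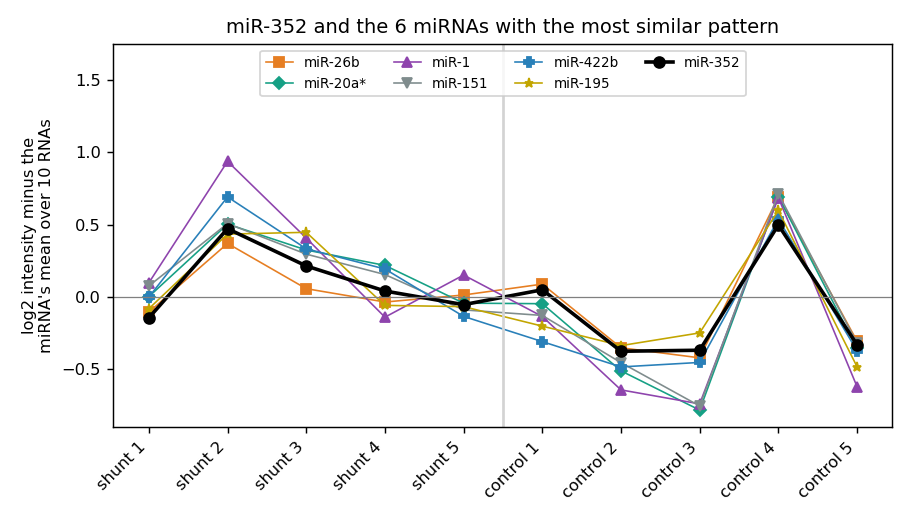
Log2 intensity of miR-352 (black) and of the 6 miRNAs with the most similar pattern, each minus its own mean over the 10 RNAs, with the RNAs on the x axis in 2 groups (the order within a group has no meaning). Shunt 2 and control 4 lie high and control 2, control 3 and control 5 lie low for miR-352 and for the 6 others, which were chosen by r over these same RNAs.

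The 6 miRNAs above were chosen by r, so their range cannot be compared with that of the let-7 and miR-98 probes. Over all 10 RNAs the r of these 8 probes with miR-352 was 0.88 for let-7i, 0.84 for miR-98 and let-7d and 0.80 for let-7e. It was 0.79 for let-7f, 0.65 for let-7b, 0.35 for let-7c and 0.25 for let-7a. Of the 8, 6 lay above the median of all kept miRNAs. Over the same 10 RNAs the level of miR-352 went with the number of rat miRNAs above background (r = 0.81) and with the median level of the kept miRNAs (r = 0.75). That number was highest in shunt 2 (102) of the shunt RNAs and in control 4 (84.5) of the control RNAs, and its part in the pattern of miR-352 was not tested.

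The summed levels of muscle marker lists were high in shunt 2 and control 4, but in control 4 mainly through 1 marker of each list. Among the 10 RNAs, shunt 2 had the highest summed level of the 4 striated muscle markers (29.5) and control 4 was at rank 3 (27.7). miR-143 and miR-145, the contractile smooth muscle markers, summed to 14.9 to 16.2 in shunt and 14.7 to 16.2 in control RNAs, with control 4 highest and shunt 2 next. The r with miR-352 was 0.94 for miR-1 and 0.76 for miR-143, against 0.65 for miR-133b, 0.34 for miR-206, 0.26 for miR-133a and -0.10 for miR-145. Without control 4 and shunt 2 it was 0.32 for miR-143. In control 4, miR-133a was at 6.31 and miR-145 at 6.77, below their control means of 6.39 and 6.89. There miR-133b and miR-206 lay close to their control means. The high sums of control 4 came mainly from miR-1, at 7.41 against a control mean of 6.43, and miR-143, at 9.47 against 8.66. miR-1 is also 1 of the 6 miRNAs chosen by r with miR-352, so its height in control 4 is no separate evidence. In shunt 2 each striated muscle marker lay above its shunt mean. The other 5 marker lists placed shunt 2 at rank 4 to 9 and control 4 at rank 6 to 10, and for miR-126 of endothelium r was 0.23. Only 1 of 4 leukocyte, 0 of 2 erythroid and 0 of 3 nerve markers passed the filter on dim probes. The ranks of those lists therefore rest mostly on readings near background and say little about these cells. The epithelial markers miR-200a, miR-200b, miR-200c and miR-203 were above background in 5, 6, 3 and 8 shunt readings, against 0, 0, 0 and 3 control readings. Of all rat miRNAs, too, more were above background in shunt RNAs (88.8 on average) than in control RNAs (60.5). The r of the epithelial markers with miR-352 was 0.07, 0.11, 0.04 and -0.02. The part of the tissue's cell make-up in the level of miR-352 was not tested.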

How the data were processed

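The authors deposited scanner files with mean and median foreground and background intensity per spot, the percent of pixels above background and a flag score, with no normalization, per the file headers. Their value table, also deposited, gives a log2 level for each spot and RNA, and the authors' deposited table of comparisons holds a signed fold (a score) and a p-value per animal; the sources used here give neither their normalization nor their test. The value table's columns have medians from -0.123 to 0.078, and the offset behind its log2 levels is unknown. Its direction follows the levels computed here (r = 0.97 for miR-352 over the 10 RNAs). Which RNA was in which dye was taken from the labels.

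Mean foreground and median background were corrected with normexp (offset 50), then normalized by loess within arrays (span 0.3, 4 iterations) and Aquantile between arrays with limma 3.58.1 under R 4.3.3 and statmod 1.5.0. All spots were used in the loess, as none is marked as a control. Log2 values were averaged over the 3 spots and then over the 2 readings of each RNA. The filter on dim probes required a share of 0.5 of the readings in either group, which left 93 of 237 rat miRNAs. lmFit and eBayes in limma compared 1 value per RNA, two-sided, without a block, with Benjamini-Hochberg adjustment over the 93 and a threshold of 0.05. RNAs that share an array were taken as independent, so p-values may be too small. The steps were tested on simulated data.

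Both legs came from 1 animal, per the labels. After subtracting group means, the RNAs of a pair correlated by -0.418, 0.00519, -0.189, -0.0468 and 0.337 in animals 27, 28, 30, 31 and 32 over the 93 miRNAs. No 2 RNAs were identical (r from 0.848 to 0.988).

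The probe, the lists and the settings were chosen with earlier results of these data known. The miRNAs named are miR-352, every let-7 and miR-98 probe, the 6 kept miRNAs outside that list with the highest r with miR-352, and markers of 7 cell types (contractile smooth muscle, endothelium, striated muscle, leukocytes, erythroid cells, nerve and epithelium). Of the markers, 1 of 4 leukocyte, 0 of 2 erythroid, 0 of 3 nerve and 3 of 4 epithelial miRNAs passed the filter. The alternatives changed the background correction, the normalization, the filter, the use of the 2 readings, the block and the RNAs included.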

Additional observations from a re-analysis of the deposited data

Results flagged for a closer look

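Single RNAs were checked for lying far from the others of their group, for miR-352 and the 14 other named miRNAs in each group, which makes 30 groups of 5. The gap to the nearest RNA, as a share of the group's range, passed the critical value of 0.71 in 4 of them, and chance alone gives about 5% of groups. For miR-352 itself the largest share was 0.51, for control 4. let-7i in control 4 was at 8.51 log2, above the other control RNAs (7.33 ± 0.049, SD, n = 4), a share of 0.907. miR-422b in control 4 was at 6.89, above the others (5.95 ± 0.079, SD, n = 4), a share of 0.829. miR-195 in control 4 was at 8.19, above the others (7.27 ± 0.12, SD, n = 4), a share of 0.74. let-7c in control 3 was at 10.2, below the others (10.96 ± 0.11, SD, n = 4), a share of 0.735. The values in control 4 are not independent, since all 3 miRNAs come from 1 RNA. miR-422b and miR-195 were named for following miR-352, which was highest in control 4, so the count of 4 cannot be set against the chance rate.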

How the results depend on the processing

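The difference of miR-352 was above 0 in 26 of 27 alternatives and passed in 0 of the 26 with a test (adjusted p from 0.083 to 0.953). It was 0.12 to 0.36 with 1 RNA left out, and it turned to -0.020 with dim readings raised to the lowest level above background. Added after seeing the data were that setting, the use of 1 channel alone and leaving out control 1 together with control 3. Relative to the median difference of all tested miRNAs it ran from -0.0013 (green channel only) to 0.51 (offset 0), that median being 0.24 with an offset of 0 and 0.28 with no normalization between arrays, where 85 of 93 miRNAs were higher. With the replicate block of the animal it stayed at 0.21 (adjusted p = 0.504), and the block changed no call but that of the count. The count of miRNAs past the threshold was 1. It was 0 with the replicate block, with median centring within arrays, with no normalization between arrays, with the deposited value table, with the red channel only, with control 1 and control 3 both left out, and over the 32 miRNAs above background in all readings of 1 group. That filter left out miR-352. Over the 14 settings with a count of 0, limma gave 4 to 31 miRNAs at an unadjusted p under 0.05. The count was 2 with an offset of 0, with the median foreground, with quantile normalization and with the green channel only, and 3 without background correction, with ratios only and with no filter on dim probes. It was 4 with centring on the median miRNA, and 0 to 25 with 1 RNA left out (25 without control 4, 3 without shunt 5, 2 without control 3). The count was 8 with the separate-channel model. That model took the 2 readings of an RNA as independent, so its p-values may be too small and its count too high. miR-352 minus the let-7 and miR-98 mean ranged from -0.82 (no normalization between arrays) to 0.34 (offset 0), with -0.21 under quantile normalization and 0.030 with ratios only, and -0.22 to -0.072 with 1 RNA left out. All 8 probes passed the filter, so taking them dim or not gave no other value. Of 361 values for the 14 other named miRNAs, 349 kept their direction and side of the threshold, 11 passed without control 4, and miR-26b turned to -0.0057 when centred on the median miRNA. The cause of these changes was not tested. The low signal over background limits the precision for miR-352.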
